A study of Mus musculus with 9 samples.

Results

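Blood-forming stem cells that carried an Evi1 transgene were compared with wild-type fetal liver progenitors that had a committed profile, by RNA sequencing. The comparison took the 3 Evi1 HSC libraries and the 3 wild-type (WT) libraries in which Hlf, a transcription factor gene of haematopoietic stem cells (HSC), was under 5 TPM. These are 6 of the 9 libraries of the series. The low-Hlf libraries were WT KL replicates 2 and 3 and the library labelled WT HSC replicate 3. The other 3 WT libraries, with high Hlf, were WT HSC replicates 1 and 2 and the library labelled WT KL replicate 1. One library of each WT label thus carried the profile of the other gate, and the WT groups below were formed from measured Hlf, not from the labels.

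All cells came from C57BL/6 fetal livers at embryonic day 14.5, and each library was made from 100 sorted cells. The Evi1 HSC were from Tie2-Cre::ROSA-Evi1 embryos and were sorted as GFP+, CD150+, CD48-, c-Kit+, Sca-1+ and Lin-. Tie2-Cre is a recombinase driven in endothelial and blood-forming cells, so the transgene was not limited to stem cells. The WT embryos are labelled ROSA-Evi1 with no Cre named, so every group shared that allele. The WT HSC gate used the same surface markers without GFP, and the WT KL gate took c-Kit+, Sca-1-, Lin- cells. No label ties the replicates of a group to separate embryos, so a p-value here reflects only how these samples scatter, which may in part be technical. Evi1 HSC replicate 3, WT HSC replicate 1 and WT KL replicate 2 had Xist under 1 TPM and the Y-linked Ddx3y at 17, 25 and 14 TPM. All other libraries had Xist at 194 to 372 TPM and Ddx3y at 0. Each labelled group thus held both sexes, so its replicates did not all come from the same embryo. The number of embryos is not stated, and the part of sex was not tested.

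Evi1 is a zinc finger transcription factor made from the Mecom locus and is needed to keep HSC in an undifferentiated state. KL cells are mostly committed progenitors that are on the way to red cells, granulocytes and megakaryocytes. Stress programmes in blood cells include the interferon response, in which IRF and other factors switch on antiviral genes, and the integrated stress response, in which ATF4 drives amino acid synthesis. Chaperones refold proteins, metallothioneins bind zinc and copper under the metal sensor MTF1, and NRF2 drives antioxidant enzymes.

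The promoters below show short elements known from red-cell, metal-responsive and interferon-responsive genes, for members whose values are described further on. Each line is the 200 bases before the start of the RefSeq transcript in GRCm38.p6, read 5′ to 3′ on the gene's strand. Klf1 and Pklr are shown for red-cell genes, Mt1 and Mt2 for metal-responsive genes, and Bst2 and Gbp2 for interferon-responsive genes. Capitals mark a GATA motif in the red-cell genes, with AGATAA or AGATAG as its letters, or TGATAA or TGATAG, and a metal response element (TGCACNC or TGCGCNC) in the metallothioneins. In the interferon genes they mark an interferon response element, which is GAAA, any 2 bases and GAAA again. All were searched on both strands. A capital run in the Bst2 promoter holds 2 overlapping matches.
Klf1: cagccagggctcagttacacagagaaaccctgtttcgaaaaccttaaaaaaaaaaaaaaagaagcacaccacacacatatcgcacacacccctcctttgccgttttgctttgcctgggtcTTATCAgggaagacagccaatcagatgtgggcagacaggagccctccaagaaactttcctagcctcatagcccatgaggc
Pklr: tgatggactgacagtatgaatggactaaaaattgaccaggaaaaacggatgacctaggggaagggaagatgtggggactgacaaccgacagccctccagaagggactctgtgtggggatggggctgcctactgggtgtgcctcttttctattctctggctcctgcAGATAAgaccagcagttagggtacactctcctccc
Mt1: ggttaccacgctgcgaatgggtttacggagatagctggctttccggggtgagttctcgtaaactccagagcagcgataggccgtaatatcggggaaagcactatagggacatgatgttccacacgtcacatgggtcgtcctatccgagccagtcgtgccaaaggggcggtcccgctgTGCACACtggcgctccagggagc
Mt2: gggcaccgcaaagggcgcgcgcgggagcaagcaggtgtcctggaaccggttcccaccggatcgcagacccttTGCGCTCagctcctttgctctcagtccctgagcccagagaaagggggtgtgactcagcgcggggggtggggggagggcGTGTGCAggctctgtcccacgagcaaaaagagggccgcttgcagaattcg
Bst2: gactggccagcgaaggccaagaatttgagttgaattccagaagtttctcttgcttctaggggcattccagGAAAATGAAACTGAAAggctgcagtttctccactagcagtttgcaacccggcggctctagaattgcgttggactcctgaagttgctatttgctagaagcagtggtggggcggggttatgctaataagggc
Gbp2: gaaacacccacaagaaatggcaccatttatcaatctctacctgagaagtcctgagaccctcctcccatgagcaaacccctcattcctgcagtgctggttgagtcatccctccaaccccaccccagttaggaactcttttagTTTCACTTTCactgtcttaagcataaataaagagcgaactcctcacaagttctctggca
These windows lie at chr8:84901782-84901981, chr3:89135942-89136141, chr8:94178889-94179088, chr8:94172418-94172617, chr8:71537473-71537672 and chr3:142620463-142620662 in that order, on the plus strand except for Bst2. Of 32851 RefSeq promoter windows of that length, 21.4% held the GATA set, 18.2% the metal response element and 2.27% the interferon element. Mt1 held 1 metal response element and Mt2 held 2. A match describes letters in the window only.

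Hlf chose the WT libraries and is given as a description. It was at 194, 140 and 181 TPM in Evi1 HSC replicates 1 to 3, the order used below. TPM is a length-scaled share of transcripts, so levels of different genes can be compared within a library. The low-Hlf libraries, always listed here as the library labelled WT HSC replicate 3 and then WT KL replicates 2 and 3, measured 0.631, 1.83 and 2.19 TPM. The high-Hlf libraries, listed as WT HSC replicates 1 and 2 and then the library labelled WT KL replicate 1, held 153, 189 and 164 TPM. The value just inside the threshold was 2.19 TPM and the value just outside was 153 TPM, so no library lay near it.

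Markers of each type followed Hlf in every library and went against 2 labels. Mecom, which encodes Evi1, measured 209, 176 and 210 TPM in the Evi1 HSC, at 0.0167, 0.0107 and 0.325 TPM in the low-Hlf libraries and at 161, 114 and 90.8 TPM in the high-Hlf libraries. All 3 Evi1 HSC values were above all 6 WT values. Whether Mecom includes transgene reads is not known here. Adgrl4, an adhesion receptor of endothelium and stem cells, measured 231, 169 and 246 TPM in the Evi1 HSC, against 6.00, 0.689 and 0.359 TPM in the low-Hlf libraries. Klf1, the master factor of red-cell genes, measured 2.51, 0.474 and 0.11 TPM in the Evi1 HSC and at 155, 147 and 151 TPM in the low-Hlf libraries. Elane, neutrophil elastase, stood at 0.323, 0.183 and 0.493 TPM against 75.7, 129 and 48.2 TPM. Egfp, the reporter of the sort, was at 23.4 to 27.3 TPM in the Evi1 HSC and at most 0.38 TPM in any WT library.

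**Figure D1:**
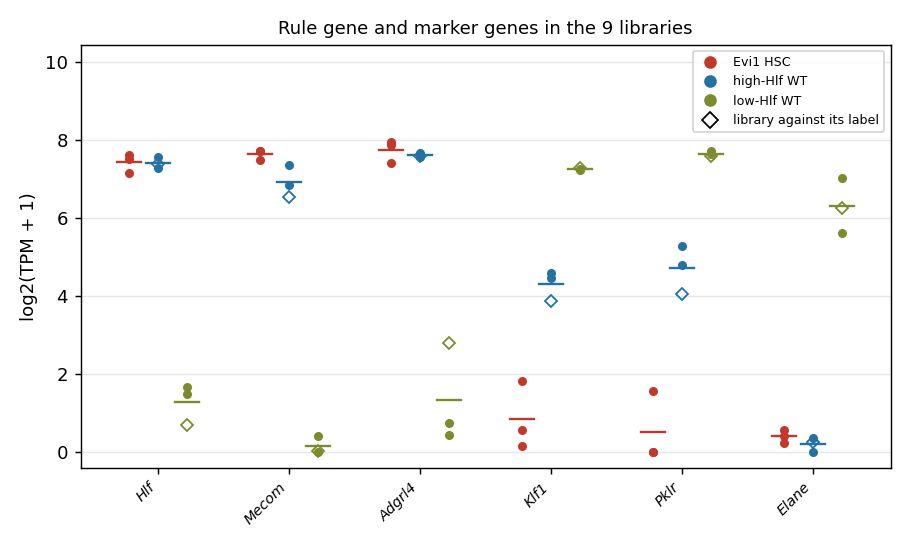
Each point is a library and each bar a group mean on the log2(TPM + 1) scale, for Hlf and the 5 marker genes. Open diamonds are the library labelled WT HSC replicate 3, which sits with the low-Hlf group, and the library labelled WT KL replicate 1, which sits with the high-Hlf group.

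The low-Hlf libraries resembled each other closely, with a mean Pearson correlation across genes of 0.972 to 0.973 within the group. Evi1 HSC libraries correlated at 0.788 to 0.808 with the low-Hlf libraries and at 0.940 to 0.945 with the high-Hlf ones. Genes at 1 TPM or more numbered 18258 to 18735 in the Evi1 HSC, 18446 to 18806 in the high-Hlf libraries and 15422 to 15819 in the low-Hlf libraries. Mitochondrially encoded genes held 11.6 to 14.6%, 13.6 to 14.1% and 17.4 to 18.1% of the listed TPM in that order. Both move with the contrast, and their part in the results was not tested. TPM keeps no depth, so the depth is unknown, and a gene listed at 0 is only that. In sorted bulk cells, fewer cells of a type and less RNA per cell cannot be told apart.

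Because the WT libraries were chosen by a measured value, the 3-against-3 contrast is a description: values per library, a difference of mean log2(TPM + 1), and whether the groups overlap. Of 19461 genes with 1 TPM or more in at least 3 libraries, 8058 (41.4%) were higher in all 3 Evi1 HSC than in all 3 low-Hlf libraries, and 3989 (20.5%) were lower, together 61.9%. At a difference of at least 2-fold as well, 4420 (22.7%) were higher and 1316 (6.76%) lower. The median gene differed by 0.29 on the log2 scale, and by -0.21 when every library was centred on its own median gene. That centring moved the split to 2508 higher and 3251 lower at 2-fold, so differences no larger than this shift depend on the scaling. Against the high-Hlf libraries, 6.9% were higher and 7.98% lower without overlap. No named gene changed direction against the low-Hlf libraries under any scaling tried.

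The tests used the labelled groups. With all 9 libraries as labelled, limma called 2 genes between Evi1 HSC and WT KL (0.0103%), Egfp and the predicted gene Gm47313, and 1 gene between Evi1 HSC and WT HSC (0.00514%), Egfp. At an unadjusted limma p under 0.05 there were 2956 and 907. The 84 other named genes that were tested had limma adjusted p of 0.0894 to 0.987 against WT KL and 0.216 to 0.989 against WT HSC. Without the 2 libraries against their labels, the fit over 7 libraries called 6087 genes higher (31.3%) and 2776 lower (14.3%) in Evi1 HSC than in WT KL, or 45.5% in all. Against WT HSC it called 11 higher (0.0565%) and 29 lower (0.149%), or 0.206% in all, and 1635 genes had an unadjusted limma p under 0.05. The 2 libraries were left out for their measured profile, so calls on genes of that profile follow in part from the choice. This holds against WT KL and against WT HSC, red-cell genes included, and such calls support nothing beyond the values. The fit with all 9 libraries called no member of any gene list in either comparison. Below, "called" refers to this fit over 7 libraries, with Benjamini-Hochberg adjustment.

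Genes of stem cell identity were far higher in the Evi1 HSC than in the low-Hlf libraries. Of 34 tested members of the stem cell list, 31 were higher than in every low-Hlf library, beside 41.4% of all genes. The median difference over the list was 4.50, against 0.29 over all genes. Hlf, itself a stem cell marker, chose the low-Hlf libraries, so its own separation was fixed by the rule. Among all genes named by size, the largest differences after Mecom were those of Gcnt2, a glycosyltransferase, Esam, an endothelial and stem cell adhesion molecule, and Gimap6, a GTPase. Gcnt2 stood at 137, 118 and 128 TPM in Evi1 HSC, at 0.32, 0.214 and 0.333 TPM in the low-Hlf libraries and at 114, 126 and 114 TPM in the high-Hlf libraries. Esam stood at 95.9, 94.4 and 85.6 TPM against 0.0885, 0.0181 and 0 TPM in the low-Hlf libraries. Gcnt2 and Esam did not separate the Evi1 HSC from all high-Hlf libraries, where they reached 126 and 92.2 TPM. Mycn, the MYC family member of fetal stem cells, was at 74.0 to 92.5 TPM in Evi1 HSC, 0.0475 to 0.497 TPM in low-Hlf and 84.8 to 87.6 TPM in high-Hlf libraries.

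Of the surface gate, Ly6a, the gene of Sca-1, was further out than in WT HSC, and the rest were not. Ly6a stood at 39.1, 58.6 and 20.7 TPM in Evi1 HSC, at 0, 0 and 0.0354 TPM in the low-Hlf libraries and at 13.2, 17.6 and 19.7 TPM in the high-Hlf libraries. Every Evi1 HSC value was above every WT value, but the lowest was near the highest high-Hlf value, and Ly6a was not called against WT HSC (difference 1.20 ± 0.40 SE, limma adjusted p = 0.48). Kit stood at 217, 130 and 185 TPM against 64.8, 87.7 and 64.9 TPM, with 173, 215 and 176 TPM in the high-Hlf libraries. Cd48, which marks cells that have left the stem cell gate, was at 3.14 to 4.07 TPM against 13.7 to 16.7 TPM in the low-Hlf libraries.

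Granule genes of neutrophil precursors were lower in the Evi1 HSC. Of 19 tested, 12 were lower than in every low-Hlf library and 5 higher, beside 20.5% and 41.4% of all genes. Members that passed the filter only through the low-Hlf libraries, such as S100a8, S100a9 and Ctsg, could only come out lower. Against the high-Hlf libraries as well, 2 lay lower (Ms4a3 and Igsf6) and 2 higher (Ltf and Csf2ra). Of all genes, 3.98% lay lower and 4.83% higher in this way. S100a8, S100a9 and Ctsg, alarmins and a granule protease, were listed at 0 in all 3 Evi1 HSC and all 3 high-Hlf libraries, and no fold is given for them. In the low-Hlf libraries S100a8 stood at 153, 492 and 110 TPM and Ctsg at 153, 180 and 91.0 TPM. Mpo, myeloperoxidase, stood at 5.22, 5.65 and 14.2 TPM in Evi1 HSC, 579, 812 and 279 TPM in low-Hlf and 13.3, 8.24 and 13.6 TPM in high-Hlf libraries. The median over this list was -3.12 for both Evi1 HSC and the high-Hlf libraries against the low-Hlf libraries. The 2 differences share the low-Hlf libraries.

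Red-cell genes were lower in the Evi1 HSC than in the low-Hlf libraries, and many were also lower than in the high-Hlf libraries. Of 31 tested, 24 were lower than in every low-Hlf library, beside 20.5% of all genes. In 14 of the 31, all 3 Evi1 HSC also lay below all 3 high-Hlf libraries, where the same was true of 3.98% of all genes. The median was -3.78 for Evi1 HSC and -2.40 for the high-Hlf libraries, each against the low-Hlf libraries. Of the 31, 5 genes, Klf1, Pklr, Gata1, Epor and Ermap, were called lower against WT HSC, and 19 had an unadjusted limma p under 0.05. Over all genes, 0.149% were called lower and 1635 of 19461 had such a p.

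Klf1 (chromosome 8, 84901928 to 84905291, plus strand, GRCm38) gave 23.1, 21.1 and 13.6 TPM in the high-Hlf libraries, between the Evi1 HSC and low-Hlf values above. Its limma difference was -6.39 ± 0.45 (SE) against WT KL, with an adjusted p of 9.2e-05, and -3.69 ± 0.45 against WT HSC, with an adjusted p of 0.043. Pklr, the red-cell pyruvate kinase (chromosome 3, 89136142 to 89146784, plus strand), stood at 1.95, 0 and 0.00404 TPM in Evi1 HSC. It was at 190, 198 and 209 TPM in the low-Hlf libraries and at 37.9, 26.8 and 15.5 TPM in the high-Hlf libraries. Hcn3 overlaps 22% of the exonic bases of Pklr, so its values are less certain. Ermap, a red-cell adhesion protein on chromosome 4, stood at 1.61, 0 and 0 TPM, against 143, 181 and 195 TPM and 27.7, 26.7 and 11.5 TPM. In each of these 3 genes the Evi1 HSC values were below all WT values, and replicate 1 was the highest of the 3.

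Gata1, the factor upstream of Klf1, was lower as well. It stood at 4.2, 3.79 and 2.79 TPM in Evi1 HSC, 100, 107 and 118 TPM in low-Hlf and 17.3, 18.2 and 8.92 TPM in high-Hlf libraries. The limma difference was -2.04 ± 0.17 (SE) against WT HSC, with an adjusted p of 0.018. Epor, the erythropoietin receptor, stood at 4.89, 5.75 and 5.71 TPM, against 57.1, 64.6 and 62.0 TPM and 16.9, 14.2 and 12.2 TPM. Rhd and Rhag, of the Rh complex, Kel, a blood group protein, and Tfrc, the transferrin receptor, were lower in Evi1 HSC than in every WT library. The calls against WT HSC depended on the settings: over the 14 settings of the fit over 7 libraries, Klf1 was called in 3, Pklr in 4, Ermap in 4, Epor in 5 and Gata1 in 7, with limma adjusted p of up to 0.215, 0.16, 0.16, 0.297 and 0.21. In each of these genes the high-Hlf library nearest to the Evi1 HSC was the one labelled WT KL replicate 1, which that fit leaves out.

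The pattern was not shared by Hbb-bt, Hba-a1 and Slc4a1, chosen after their values were seen, while Ank1, Epb42, Car1 and Add2 are among the 14 genes with it. Hbb-bt, an adult beta globin, stood at 1428, 681 and 861 TPM in Evi1 HSC, at 350, 187 and 165 TPM in the low-Hlf libraries and at 545, 619 and 2280 TPM in the high-Hlf libraries. Hba-a1, an alpha globin, stood at 244, 2.40 and 2.03 TPM in Evi1 HSC and reached 1146 TPM in a high-Hlf library, the one labelled WT KL replicate 1. Slc4a1, the anion exchanger of mature red cells, was at 14.8 TPM in Evi1 HSC replicate 1 and at 0.0892 and 0 TPM in replicates 2 and 3. Without Evi1 HSC replicate 1, the number of red-cell genes below all high-Hlf libraries was 25 of 31 in place of 14. For all genes the count rose as well, from 775 to 1243, since fewer libraries separate more easily. The part of red-cell RNA in that library was not tested. Globin genes have close paralogs, so the division of reads among them is uncertain.

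**Figure D2:**
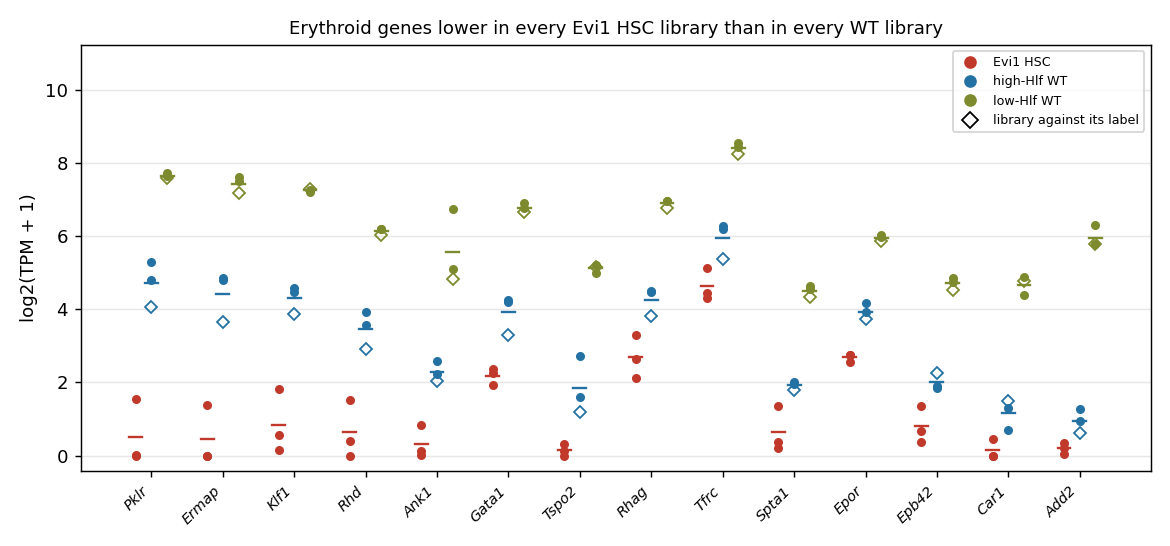
Each point is a library, on the log2(TPM + 1) scale, for the 14 red-cell genes in which every Evi1 HSC library lay below every WT library. Evi1 HSC replicate 1 is the highest of its group in Klf1, Pklr and Ermap, and the high-Hlf libraries lie between the Evi1 HSC and low-Hlf groups.

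The GATA set was found in the promoters of 6 of the 11 of these 14 genes that are in the RefSeq table: Epor, Ermap, Klf1, Pklr, Rhag and Rhd. That is 54.5%, beside 24.2% of all genes. The letters AGATAA alone were in 3 of the 11, Epor, Pklr and Rhd, or 27.3%, beside 8.99% of all genes. A CACCC box (CCACCC or CCGCCC) was in 7 of the 11, or 63.6%, beside 48.1% of all genes. In the Klf1 promoter printed above the GATA match is of the wider set only. It starts 80 bases before the transcript start, on the opposite strand, and the Pklr match 35 bases before. The motif letters were chosen after the gene values were known.

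Endothelial genes were nearly all higher than in the low-Hlf libraries, with 20 of 21 separated, beside 41.4% of all genes, at a median of 3.52. In 4 of the 21, Stab2, Lyve1, Ets1 and Ramp2, Evi1 HSC were also above all high-Hlf libraries, beside 4.83% of all genes. Leaving out WT HSC replicate 2 gave 10 such genes, and leaving out Evi1 HSC replicate 2 or 3 or the library labelled WT KL replicate 1 gave 6. For all genes the count of 939 became 1536, and 2069, 1471 and 1479, without those libraries in turn. Stab2, a scavenger receptor of sinusoidal endothelium, stood at 10, 10.8 and 10.5 TPM in Evi1 HSC, 0.0373, 0.0388 and 0.0254 TPM in low-Hlf and 0.175, 8.26 and 0.58 TPM in high-Hlf libraries. Lyve1, a hyaluronan receptor of the same endothelium, stood at 13, 10 and 9.13 TPM in Evi1 HSC versus 0.393, 8.58 and 3.31 TPM in the high-Hlf libraries. WT HSC replicate 2 was close to the Evi1 HSC in both genes, and the other high-Hlf libraries were low. Over the 14 settings of the fit over 7 libraries, each was called against WT HSC only without WT HSC replicate 2, at limma adjusted p of 0.0253 and 0.0434, with 1 WT HSC library left and its spread assumed to be that of the other groups. Mrc1, a scavenger receptor shared by macrophages and sinusoidal endothelium, took the same pattern, at 6.38, 6.37 and 7.81 TPM against 0.199, 5.61 and 1.35 TPM. The summed level of the 24 endothelial markers was 1048 to 1606 TPM in the Evi1 HSC, 965 to 1050 TPM in the high-Hlf and 63.4 to 85.3 TPM in the low-Hlf libraries, and its part in these differences was not tested. Of 11 macrophage markers 3 were tested, and 2 of them, Cd68 and Mrc1, were above every WT library. The summed macrophage level was 17.5 to 21 TPM in the Evi1 HSC, 9.43 to 15.5 TPM in the high-Hlf and 10.5 to 13.9 TPM in the low-Hlf libraries. C1qa, a defining macrophage gene, measured 0.318, 0 and 0 TPM in the Evi1 HSC. Of 12 hepatocyte markers 3 were tested, with a sum of 26.3 to 29.1 TPM in the Evi1 HSC and 17.7 to 50.2 TPM in the high-Hlf libraries, and of 10 stroma markers none was tested. Of 10 mast cell and basophil markers 3 were tested, with a sum of 2.37 to 5.09 TPM in the Evi1 HSC and 13.4 to 60.3 TPM in the low-Hlf libraries.

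**Figure D3:**
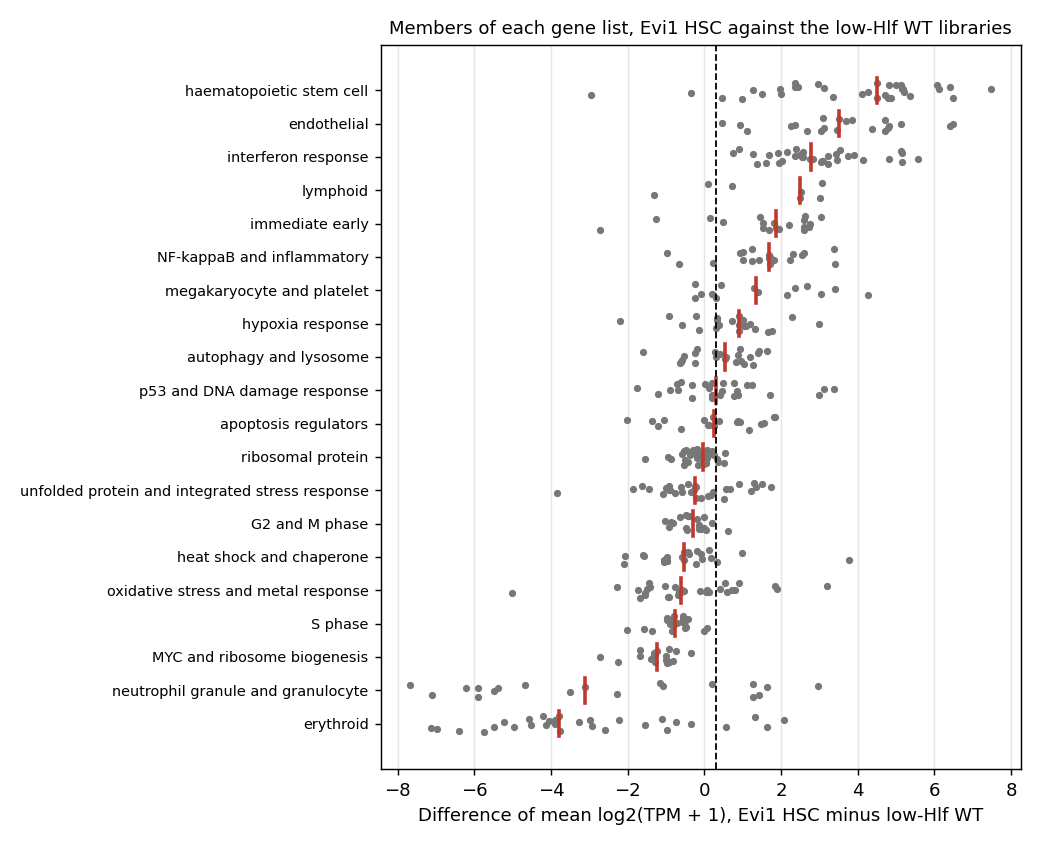
Each grey point is a gene, placed by the difference of mean log2(TPM + 1) between Evi1 HSC and low-Hlf libraries, and each red bar is the median of a gene list. The dashed line is the median of all tested genes at 0.29, and the lists run from red-cell genes, at -3.78, to stem cell genes, at 4.50.

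Genes of ribosome biogenesis and S phase were lower in the Evi1 HSC, and those of G2 and M phase were mixed. Of all genes, 20.5% were lower and 41.4% higher than in every low-Hlf library, and 14.3% were called lower and 31.3% higher against WT KL. Of 19 tested genes of MYC and ribosome biogenesis, 15 were lower than in every low-Hlf library, 16 were called lower and none was called higher, at a median of -1.24. Myc itself stood at 12.4, 9.90 and 19.1 TPM in Evi1 HSC, 86.2, 99.9 and 93.9 TPM in low-Hlf and 33.2, 17.6 and 19.0 TPM in high-Hlf libraries. Srm, spermidine synthase, stood at 70.4, 74.5 and 81.9 TPM, against 395, 366 and 338 TPM and 137, 104 and 122 TPM, below every WT library. Of 21 S phase genes, 17 were lower and 17 were called lower, including Rrm2, of ribonucleotide reductase, at 46.7 to 48.5 TPM against 191 to 198 TPM. Of 20 genes of G2 and M phase, 9 were lower than in every low-Hlf library, 1 was higher and 10 overlapped, and 5 were called lower. Their median was -0.29 against the low-Hlf and 0.27 against the high-Hlf libraries. Of these 20 genes, 2, Pbk and Cenpp, were called higher against WT HSC, beside 0.0565% of all genes.

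Over the 10 stress lists together, 243 genes were tested. All 3 Evi1 HSC were above all low-Hlf libraries in 128 and below all of them in 67. For all genes these shares were 41.4% and 20.5%, which also stand beside the counts of each stress list below. Likewise, the shares of all genes called higher and lower against WT KL were 31.3% and 14.3%. In 33 genes the Evi1 HSC were also above all high-Hlf libraries, and in 15 they were also below all high-Hlf libraries, which is 19.8% of the 243, beside 8.81% of all genes tested. Of the 33 higher genes, 17 were interferon genes, which leaves 16 of the other 209 tested. The 16 include Adm, which passed the filter only through the Evi1 HSC, so that its separation was fixed in advance. Leaving out each library gave 32 to 49 higher and 15 to 25 lower. The lower count was 25 without Evi1 HSC replicate 2, 24 without WT HSC replicate 2 and 23 without Evi1 HSC replicate 1. Counts over all genes also rose, from 939 higher and 775 lower to as many as 2069 and 1243. Of the 243 genes, 2 were called against WT HSC, Mt1 and Dnajb4, and 43 had an unadjusted limma p under 0.05. Over all genes, 0.206% were called and 1635 of 19461 had such a p.

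Interferon genes were higher in the Evi1 HSC without exception among those tested. All 34 were above all low-Hlf libraries and all 34 were called higher against WT KL. The median was 2.79 for Evi1 HSC and 2.07 for the high-Hlf libraries, each against the low-Hlf libraries, and 17 of the 34 were above all high-Hlf libraries as well. That was the case for 4.83% of all genes. None of the 34 was called by limma against WT HSC, where 16 had an unadjusted p under 0.05, beside 1635 of all 19461 genes. With every library centred on its median gene, 32 of the 34 were above all low-Hlf libraries.

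Irf7, the factor that amplifies interferon output, stood at 8.98, 37.6 and 11.4 TPM in Evi1 HSC, 0.448, 0.614 and 1.48 TPM in low-Hlf and 2.71, 7.64 and 6.30 TPM in high-Hlf libraries. Its limma difference was 3.08 ± 0.63 (SE) against WT KL, with an adjusted p of 0.0077. Rtp4, an interferon-induced chaperone, stood at 29.8, 90.3 and 20.1 TPM, against 0.264, 0.0566 and 0.0184 TPM and 12.7, 12.1 and 18.2 TPM. Oasl2, a sensor-like antiviral gene, stood at 35.2, 105 and 31.7 TPM, against 0.0832, 0.0279 and 0.0291 TPM and 19.9, 28.3 and 25.6 TPM. Evi1 HSC replicate 2 was the highest library for all 3, and replicates 1 and 3 lay closer to the high-Hlf libraries than to it. Without replicate 2, 17 of the 34 were above all high-Hlf libraries, and the median difference from the high-Hlf libraries was 0.45 in place of 0.70. The count over all genes rose from 939 to 2069 without that library, so an unchanged 17 stands out less from it. Without replicate 1 or 3 there were 24 and 20 of the 34, beside 1353 and 1471 of all genes.

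Regulators and effectors of the response are given next. Irf1, a transcription factor of the response, stood at 42.0, 32.5 and 29.9 TPM against 1.95, 2.17 and 0.968 TPM, and its high-Hlf values of 28.6, 29.2 and 38.7 TPM overlapped the Evi1 HSC. Ddx58, the RNA sensor RIG-I, stood at 36.5, 75.5 and 40.8 TPM, against 0.469, 0.528 and 0.183 TPM and 16.4, 36.2 and 30.9 TPM. Bst2, tetherin, stood at 40, 55.6 and 41.4 TPM in Evi1 HSC, 13.0, 11.7 and 8.80 TPM in low-Hlf and 24.9, 24.2 and 25.7 TPM in high-Hlf libraries. Gbp2, a guanylate-binding protein, stood at 15.2, 9.05 and 10.3 TPM against 0.0866, 0.141 and 0.109 TPM, with 6.44, 6.79 and 6.82 TPM in the high-Hlf libraries. In Bst2 and Gbp2 the 3 groups stood in separate steps, with the high-Hlf libraries in the middle. Tap1, the peptide transporter of antigen display, stood in the same 3 steps, at 33.7, 31.4 and 26.0 TPM, 2.91, 1.37 and 1.58 TPM, and 16.1, 20.8 and 21.2 TPM. Of 17 interferon genes above every WT library, 13 were in the RefSeq table. Of these, 5 (38.5%) held the interferon response element in the 200 bases before the start: Bst2, Gbp2, Ifitm2, Igtp and Irgm1. Among all tested interferon genes, 12 of the 28 in that table (42.9%) held it, so it was no more frequent in the 13. Per gene, the share over all genes was 2.65%.

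**Figure D4:**
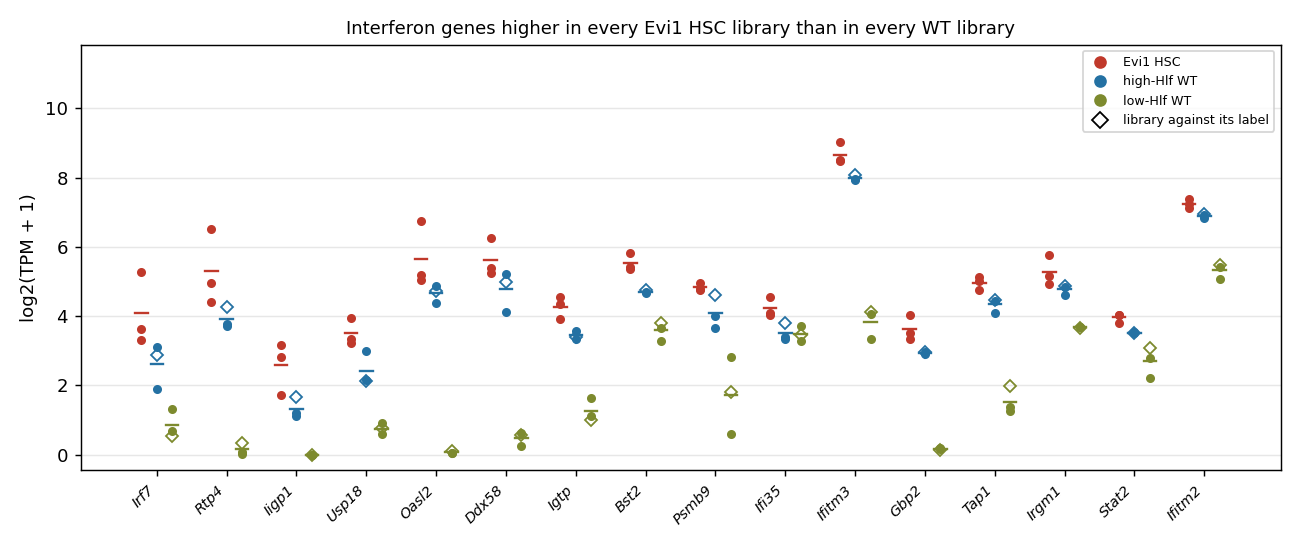
Each point is a library, on the log2(TPM + 1) scale, for 16 of the 17 interferon genes in which every Evi1 HSC library lay above every WT library. Evi1 HSC replicate 2 stands apart in Irf7, Rtp4 and Oasl2, at 37.6, 90.3 and 105 TPM, and not in Gbp2.

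Mt1 and Mt2, neighbouring metallothionein genes on chromosome 8, differed from the high-Hlf libraries in opposite directions. Mt1 (94179082 to 94180327, plus strand) stood at 224, 219 and 216 TPM in Evi1 HSC, 339, 330 and 345 TPM in low-Hlf and 70.9, 59.2 and 41.9 TPM in high-Hlf libraries. The 3 groups were separate, with the Evi1 HSC between the other 2 and nearer to the low-Hlf libraries. The limma difference was -0.62 ± 0.11 (SE) against WT KL, with an adjusted p of 0.0035, and 1.75 ± 0.11 against WT HSC, with an adjusted p of 0.0032. The second call held in 13 of the 14 settings of the fit over 7 libraries and was lost with the replicate block, at an adjusted p of 0.0818.

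Mt2 (94172664 to 94173568, plus strand) stood at 14.3, 1.46 and 3.72 TPM in Evi1 HSC, 188, 163 and 198 TPM in low-Hlf and 43.5, 27.7 and 17.2 TPM in high-Hlf libraries. All Evi1 HSC values were below all WT values, with replicate 1 close to the lowest of them. It was called lower against WT KL, at -5.00 ± 0.69 (SE) and an adjusted p of 0.0014, and not against WT HSC, at -2.67 ± 0.69 and 0.33. Gm45774 overlaps 73.5% of the exonic bases of Mt2, and Mt1 and Mt2 are close paralogs, so how reads were divided between these genes can set their values. In the WT libraries the pair was high and low together. Mtf1, the zinc sensor that drives metallothioneins, stood at 3.94, 3.68 and 4.78 TPM in Evi1 HSC, against 12.6, 16.8 and 12.7 TPM and 6.20, 6.30 and 5.81 TPM, below all WT libraries.

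Antioxidant genes were mostly lower in the Evi1 HSC. Of 31 tested genes of oxidative stress and metal response, 18 were below and 9 above all low-Hlf libraries, and 18 were called lower and 7 higher against WT KL. Prdx2, the peroxiredoxin abundant in red cells, stood at 170, 140 and 163 TPM in Evi1 HSC, 473, 505 and 528 TPM in low-Hlf and 225, 219 and 190 TPM in high-Hlf libraries. Prdx6 stood at 86.2, 70.3 and 76.8 TPM, against 219, 224 and 242 TPM and 108, 106 and 104 TPM. Nqo1, a quinone reductase of the NRF2 response, stood at 1.89, 2.66 and 2.13 TPM, against 8.04, 7.15 and 7.44 TPM and 4.37, 4.14 and 3.44 TPM. All 3 were below every WT library, and so was Nfe2l2, the gene of NRF2, at 28.9 to 30.7 TPM. Txnip, an inhibitor of thioredoxin, went the other way, at 188, 175 and 246 TPM against 19.9, 22.5 and 21.0 TPM, with 142, 165 and 164 TPM in the high-Hlf libraries. Txnrd1 was also above every WT library, at 35.8 to 39.2 TPM against 21.4 to 23.7 TPM in the low-Hlf and 29.2 to 31.0 TPM in the high-Hlf libraries.

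Genes of the unfolded protein and integrated stress response were mixed, and 3 amino acid enzymes, Asns, Psat1 and Shmt2, were below every WT library. Of 31 tested genes, 15 were below and 6 above all low-Hlf libraries, with 12 called lower and 6 higher, at a median of -0.25. Asns, asparagine synthetase (chromosome 6, 7675169 to 7693254, minus strand), stood at 18.4, 15.5 and 8.23 TPM in Evi1 HSC, 192, 211 and 217 TPM in low-Hlf and 57.1, 52.1 and 39.8 TPM in high-Hlf libraries. The limma difference was -3.90 ± 0.30 (SE) against WT KL, with an adjusted p of 0.00013, and -1.95 ± 0.30 against WT HSC, with an adjusted p of 0.094. Psat1 and Shmt2 act in serine and glycine synthesis. Psat1 stood at 61.5, 60.9 and 48.0 TPM, against 181, 186 and 167 TPM and 77.5, 74.8 and 73.5 TPM. Shmt2 stood at 41.3, 37.3 and 41.0 TPM, against 113, 112 and 106 TPM and 64.1, 46.2 and 47.2 TPM. Atf4 itself, at 35.0, 32.1 and 42.9 TPM in Evi1 HSC versus 43.6, 33.7 and 36.6 TPM in the high-Hlf libraries, overlapped between these groups. Phgdh, the first enzyme of serine synthesis, overlapped the high-Hlf libraries too, at 54.5, 62.2 and 61.8 TPM against 50.7, 40.2 and 56.9 TPM.

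Chaperone genes were lower more often than higher. Of 24 tested, 11 were below and 3 above all low-Hlf libraries, and 11 were called lower and 3 higher. Among all genes, 20.5% were below and 41.4% above. Hspe1 and Hsp90ab1 were below every WT library, a count of 2 that was 6 without Evi1 HSC replicate 1 or 2 and 7 without WT HSC replicate 2. For all genes the count was 775 (3.98%), and 1243, 1099 and 1206 without those libraries in turn. Hspe1 and Hspd1 form the mitochondrial chaperonin. Hspe1 stood at 68.3, 61.4 and 59.1 TPM in Evi1 HSC, 254, 287 and 272 TPM in low-Hlf and 130, 76.1 and 91.5 TPM in high-Hlf libraries, below every WT library. Hspd1 stood at 85.1, 98.7 and 56.8 TPM, against 354, 350 and 301 TPM and 126, 93.3 and 100 TPM, and overlapped the high-Hlf libraries. Serpinh1, a collagen chaperone, was above every WT library, at 15.0, 13.5 and 14.9 TPM against 0.0892, 0.146 and 0.188 TPM and 7.10, 12.8 and 8.77 TPM. Hspa1a, the inducible HSP70 gene, overlapped in all groups, at 11.7 to 40.9 TPM in Evi1 HSC versus 21.3 to 47.4 TPM in low-Hlf libraries. Dnajb4, an HSP40 co-chaperone, was at 3.71, 3.46 and 5.03 TPM in Evi1 HSC, against 13.2, 3.42 and 3.73 TPM in low-Hlf and 14.8, 17.0 and 17.0 TPM in high-Hlf libraries. It was called lower against WT HSC, at an adjusted p of 0.039, in 4 of the 14 settings of the fit over 7 libraries, with adjusted p of up to 0.257. The low-Hlf library labelled WT HSC replicate 3 stood with the high-Hlf libraries.

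**Figure D5:**
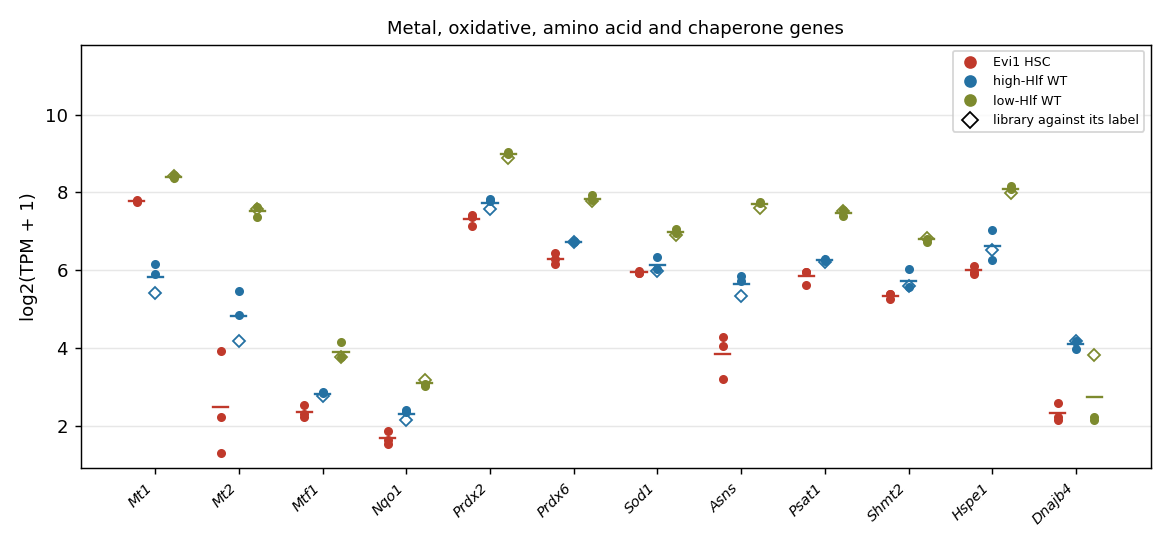
Each point is a library, on the log2(TPM + 1) scale, for 12 metal, oxidative, amino acid and chaperone genes. Evi1 HSC lie between the WT groups for Mt1, at 216 to 224 TPM, and below both for Mt2, Mtf1, Nqo1, Prdx2, Prdx6, Sod1, Asns, Psat1, Shmt2 and Hspe1.

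Hypoxia genes were higher more often than lower. Of 22 tested, 13 were above and 3 below all low-Hlf libraries (8 and 5 with median centring), with 10 called higher and 2 lower. Among all genes, 41.4% were above and 20.5% below (4777 and 7547 of 19461 with median centring). The calls over all genes were 31.3% higher and 14.3% lower. Egln3, Vegfa, Slc2a1 and Adm were above every WT library, and with libraries centred on their median gene, 1 of the 22 was above every WT library. The count of 4 was 7 without Evi1 HSC replicate 1 and 6 without WT HSC replicate 2. For all genes the count was 939 (4.83%), and 1353 and 1536 without those libraries in turn. Egln3, an oxygen sensor, stood at 12.6, 12.7 and 20.5 TPM in Evi1 HSC, 3.56, 4.47 and 3.11 TPM in low-Hlf and 8.01, 10 and 8.54 TPM in high-Hlf libraries. Adm, the vasodilator adrenomedullin, stood at 2.38, 1.62 and 2.47 TPM, was listed at 0 in all low-Hlf libraries and was at most 0.0887 TPM in the high-Hlf libraries. Only the Evi1 HSC took Adm past the filter of 1 TPM in 3 libraries, so its place among the 4 was fixed by that filter. Vegfa stood at 18.4, 22 and 32.9 TPM, where the nearest high-Hlf library was at 18.0 TPM, so its separation was small. Ldha, lactate dehydrogenase, was lower, at 440, 572 and 555 TPM against 996, 975 and 966 TPM, and overlapped the high-Hlf libraries.

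Immediate early genes, which respond within minutes and also to cell sorting, were mostly higher than in the low-Hlf libraries. Of 19 tested, 16 were above and 2 below all low-Hlf libraries, and none was above or below all high-Hlf libraries in the same direction. Without Evi1 HSC replicate 1, Evi1 HSC replicate 2 or WT HSC replicate 2, there were 2 above. Fos stood at 31.3, 11.8 and 51.9 TPM in Evi1 HSC, 1.39, 5.29 and 5.19 TPM in low-Hlf and 15.6, 35.4 and 8.04 TPM in high-Hlf libraries, with wide spread within both HSC groups. Of 20 genes of NF-kappaB and inflammation, 17 were above and 2 below all low-Hlf libraries, and 3 were also above all high-Hlf libraries: Ripk2, Tnfrsf1a and Tnfrsf1b. There were 6 without the library labelled WT KL replicate 1, and the share over all genes was 4.83% with every library. Tnfrsf1b, a TNF receptor, stood at 31.1, 29.0 and 28.9 TPM, against 4.98, 4.57 and 2.80 TPM and 19.1, 25.1 and 28.1 TPM. The Evi1 HSC and the library labelled WT KL replicate 1 were nearly level in that gene.

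The p53, apoptosis and autophagy lists were mixed. Beside them, 41.4% of all genes were above and 20.5% below all low-Hlf libraries (4777 and 7547 of 19461 with median centring). Of 26 p53 genes, 12 were above and 7 below all low-Hlf libraries, at a median of 0.31, and with median centring 6 were above and 9 below, at -0.19. Ddb2, a DNA damage sensor, was above every WT library, at 15.5, 14.0 and 18.4 TPM against 6.45, 4.09 and 8.42 TPM and 11.9, 11.3 and 11 TPM, though Acp2 overlaps 23.8% of its exonic bases. Ccng1 and Aen, p53 targets, were below every WT library. Of 19 apoptosis regulators, 8 were above and 5 below (7 and 8 with median centring), and the anti-apoptotic Bcl2l1 stood at 12.1, 12.4 and 12.8 TPM against 4.64, 4.95 and 5.49 TPM and 11.4, 10.5 and 11.8 TPM. Of 23 autophagy and lysosome genes, 13 were above and 7 below (8 and 9 with median centring), with Lamp2 at 68.1 to 79.0 TPM against 33.4 to 40.9 TPM and Wipi1 at 1.23 to 2.09 TPM against 5.29 to 10.9 TPM.

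Among genes outside the lists that were further from the low-Hlf libraries, at a mean of at least 10 TPM in 1 of the 3 groups and without predicted genes and the reporter Egfp, the largest differences above all high-Hlf libraries were in Foxj3, Tgtp1, an interferon-induced GTPase, and N4bp2l1. Tgtp1 stood at 21.2, 17.9 and 5.13 TPM, against 0.038, 0.0309 and 0.0432 TPM and 1.93, 4.11 and 4.91 TPM. Foxj3, a forkhead factor, stood at 31.5, 28.8 and 13.4 TPM in Evi1 HSC versus 5.85 to 7.76 TPM in all 6 WT libraries, so the WT groups did not separate. Peg10, an imprinted gene of retroviral origin, stood at 13.1, 12.6 and 23.5 TPM, against 2.27, 0.857 and 1.51 TPM and 4.28, 10.2 and 3.44 TPM. Nek6, a mitotic kinase, rested on replicate 2, at 4.29, 33.2 and 3.46 TPM against 2.40 to 2.64 TPM in the high-Hlf libraries. By the same rule, Atp1b2, a sodium pump subunit, Nxpe2, Snhg3 and Epdr1 were among the genes with the largest differences below all high-Hlf libraries. Nxpe2 stood at 1.3, 0.475 and 0.631 TPM in Evi1 HSC, 57.3, 70.7 and 64.8 TPM in low-Hlf and 11.6, 13.4 and 8.84 TPM in high-Hlf libraries. It was called lower against WT HSC, at -2.93 ± 0.22 (SE) and an adjusted p of 0.0102, in 8 of the 14 settings of the fit over 7 libraries. Epdr1 was called in 9 of the 14 settings, at 0.554, 0.526 and 0.79 TPM against 10.3, 8.20 and 3.53 TPM in the high-Hlf libraries. Snhg3, a host gene of small nucleolar RNAs, was low in replicates 1 and 3, at 0.731 and 1.3 TPM, and at 20.6 TPM in replicate 2, and other genes overlap 86.3% of its exonic bases.

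Some genes departed less from the low-Hlf libraries in the Evi1 HSC than in the high-Hlf libraries. This held for 341 genes that were higher (1.75%) and 75 that were lower (0.385%) than in the low-Hlf libraries. Rab37, a secretory GTPase, stood at 5.06, 4.61 and 4.52 TPM in Evi1 HSC, 1.17, 0.971 and 0.64 TPM in low-Hlf and 22, 11.2 and 25.5 TPM in high-Hlf libraries. Slit2, a guidance ligand, stood at 9.23, 9.62 and 17.7 TPM, against 0.0169, 0.0221 and 0.45 TPM and 39.7, 21.7 and 28.1 TPM. Cenpp, a centromere protein, stood at 17.8, 17.0 and 15.2 TPM in Evi1 HSC, 23.0, 22.2 and 21.6 TPM in low-Hlf and 1.05, 0.787 and 14.1 TPM in high-Hlf libraries. It was called higher against WT HSC in 13 of the 14 settings of the fit over 7 libraries, while the library labelled WT KL replicate 1, which that fit leaves out, stood close to the Evi1 HSC. Kif22 and Incenp, of mitosis, lay between the groups with small differences, at 35.1 to 43.8 and 43.5 to 47.0 TPM in Evi1 HSC.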

How the data were processed

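Expression was measured by RNA sequencing in 9 libraries of 100 sorted cells. The authors deposited TPM per gene, per the file headers, 1 library per file. The value column of WT HSC replicate 2 does not name the unit and was read as TPM, since its total matched the others (listed genes held 56.9 to 63.8% of a full TPM total in each library). The submitters' processing notes name HISAT2, StringTie and mm10, while their versions, the annotation and any use of strand are not stated. TPM is a share, so a few abundant genes lower all others, and no count model was used. Tables hold 55488 genes, and 19461 at 1 TPM or more in at least 3 libraries were tested.

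Values were analysed as log2(TPM + 1), which understates changes of low genes, with limma 3.58.1 in R 4.3.3 (trended, Benjamini-Hochberg, threshold 0.05), Python 3.11.15 and pandas 2.3.3. The labelled groups gave the tests, and groups by Hlf gave descriptions. Calls of named genes and lists are from the fit over 7 libraries, which keeps the labels but leaves out the 2 libraries that the Hlf rule moved. That fit is therefore not independent of the rule. The limma step was tested on simulated data. The members, the 24 gene lists and the motifs were chosen with earlier results of these data known. Named genes were 12 markers, the 12 largest differences each way against the low-Hlf libraries, the 10 largest extra steps each way beyond the high-Hlf libraries, the 5 largest each way among genes between the WT groups, these at a mean of at least 10 TPM and without predicted genes, and up to 6 per stress list. The widened GATA set and the interferon element were added after gene values were seen. Others were named after their values were seen. Gene positions are from GENCODE in GRCm38. Deviations of same-numbered libraries from their group means had r of -0.0619 to -0.00657 over 7 libraries. In that fit each WT group is a pair whose deviations mirror each other, so these r cannot settle whether replicate numbers pair samples. Over all 9 libraries, same-numbered WT HSC and WT KL libraries had r of 0.621, -0.636 and 0.704, with the libraries against their labels included. Other pseudocounts, filters, scalings, the replicate block and leaving out each library were tried. Values of 1 interferon gene are not reported here; it is counted in the lists.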

Additional observations from a re-analysis of the deposited data

How the results depend on the processing

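TPM carries no depth, so zeros and low values have no error of their own. Against WT KL, the labelled fit called 2 genes, 1 with a pseudocount of 0.1, 6 with no filter and 8863 without the 2 libraries against their labels. Over those 7 libraries it called 9038 with a pseudocount of 0.1, 8468 with no filter, 9210 rescaled to listed genes, 9253 (3534 higher, 5719 lower) median centred and 8708 with the compared groups alone. Against WT HSC it called 1, then 0 with a pseudocount of 0.1, where 846 had an unadjusted limma p under 0.05, 3 with no filter and 40 over 7 libraries. The latter became 30 with a pseudocount of 0.1, 73 with no filter, 49 rescaled, 41 median centred and 6 with the compared groups alone. Leaving out each library gave 2 to 96 genes against WT KL in the labelled fit, the 96 without WT KL replicate 1, and 5641 to 8703 over 7 libraries. Against WT HSC it gave 1 to 3 and, over 7 libraries, 5 to 27, with 5 without WT HSC replicate 1. With the replicate block, the fit over 7 libraries called 7526 genes (5145 higher, 2381 lower) against WT KL and 0 against WT HSC, where 1471 had an unadjusted p under 0.05, and the labelled fit called 2 and 1. At least 2-fold differences from the low-Hlf libraries numbered 2508 higher and 3251 lower with median centring, in place of 4420 and 1316. Leaving out each library gave 938 to 2069 genes further higher and 770 to 1243 further lower, from 939 and 775, with 2069 higher without Evi1 HSC replicate 2 and 1243 lower without replicate 1. Whether replicate numbers pair the samples cannot be told from these values. The cause was not tested.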
